A study of Mus musculus with 6 samples.

Results

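A stretch of mouse chromosome 1 that ends 13.2 Mb short of the lincRNA-Cox2 gene was examined in lungs with and without that gene. Its members were the rows of the deposited table of the authors whose identifiers run from kgCluster1023 to kgCluster1080, without Lgr6 and Lmod1; Chil1, which is also left out, carries the identifier just below that range. This gave 49 rows with 47 distinct symbols out of 20494 rows in all, of which 46 rows were placed on mm10 by symbol, from Mybph at 134193448 to Nr5a2 at 136960448. The stretch was chosen from the same knockout comparison that is described here, after called genes had been seen in it. Differences between the genotypes within it are therefore a description and were not tested as a group.

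Whole lungs of untreated male C57BL/6 mice, 4 months old, gave 6 libraries of total RNA, 3 from lincRNA-Cox2 knockouts and 3 from wild type animals. The deleted gene makes a long noncoding RNA and lies beside Ptgs2, the gene of the inducible cyclooxygenase. The labels do not say how the knockout allele was made, and they name the same strain for both genotypes.

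The members are neighbours on the chromosome and not parts of 1 pathway. Several build or control muscle: troponins form the calcium switch of the striated thin filament, Csrp1 encodes a LIM protein of smooth muscle, and Ppp1r12b a regulatory subunit of myosin phosphatase. Others act in receptor signalling (Adora1, Adipor1), epithelial anchoring (Lad1, Pkp1), microtubule organisation (Camsap2, Nav1, Kif21b) or gene regulation (Zfp281, Nr5a2, Elf3, Kdm5b). Whole lung mixes all of these cells, so fewer cells of a type and less RNA per cell cannot be told apart in any value below.

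Values are the authors' group means of normalized counts, in which each library was scaled by its size factor. A fold is the ratio of those means. The shrunken log2 fold change is their estimate for knockout relative to wild type, pulled towards 0, and it comes with their standard error (SE). A gene was called where their adjusted p was under 0.05. The normalized means summed to 37118488 in wild type and 36839329 in knockout, and the totals of single libraries are not given by the table. All of these values come from the authors' deposited table, and where 2 means are given without a genotype, wild type comes first. LincRNA-Cox2 itself averaged 311 and 0.666 there and Ptgs2 2929 and 298, so the sign of the comparison fits its labels. All 8 lung genes listed as a tissue check were measured and none was called. Of 10 tested neutrophil genes, 7 were called higher, and 1, Ltf (2449 and 1366), had a lower knockout mean and was not called. The means of all 12 listed neutrophil genes summed to 10416 in wild type and 13960 in knockout. The 5 tested red cell genes all had a higher knockout mean and none was called. The part of blood cells in the members' differences was not tested.

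The start regions of 4 called members are shown because they span the differences found: the largest rise among called members, its rising neighbour, and both members that were lower. Each is the RefSeq window on GRCm38.p6 from 250 bases before to 50 bases after the start, 5′ to 3′ on the gene's strand. Capitals mark 3 motifs searched on both strands, which do not overlap here. The TATA box motif, TATAAA, occurs in 13.6% of all 32851 windows of this length. The motif CCAAT occurs in 37.4% of them. The GC box motif, GGGCGG, occurs in 35.7%.
Ddx59, chr1:136415021-136415320, plus strand: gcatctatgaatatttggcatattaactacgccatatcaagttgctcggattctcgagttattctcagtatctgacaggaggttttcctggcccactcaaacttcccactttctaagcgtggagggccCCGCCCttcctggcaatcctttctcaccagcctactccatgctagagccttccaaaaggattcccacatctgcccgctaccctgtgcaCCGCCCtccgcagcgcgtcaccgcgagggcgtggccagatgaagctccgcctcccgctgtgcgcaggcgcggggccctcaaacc
Camsap2, chr1:136346055-136346354, minus strand: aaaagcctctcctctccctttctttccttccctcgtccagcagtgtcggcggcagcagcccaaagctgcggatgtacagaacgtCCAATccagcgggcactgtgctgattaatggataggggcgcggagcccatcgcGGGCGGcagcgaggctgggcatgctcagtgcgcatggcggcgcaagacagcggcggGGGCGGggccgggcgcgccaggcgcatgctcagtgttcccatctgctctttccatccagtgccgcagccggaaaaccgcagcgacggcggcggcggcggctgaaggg
Phlda3, chr1:135765835-135766134, plus strand: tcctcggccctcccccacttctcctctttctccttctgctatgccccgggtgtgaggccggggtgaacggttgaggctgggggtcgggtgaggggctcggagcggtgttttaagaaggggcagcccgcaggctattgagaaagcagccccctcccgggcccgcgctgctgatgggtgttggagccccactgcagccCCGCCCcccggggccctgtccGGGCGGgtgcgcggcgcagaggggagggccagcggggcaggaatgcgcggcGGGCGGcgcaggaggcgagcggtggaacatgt
Nr5a2, chr1:136960399-136960698, minus strand: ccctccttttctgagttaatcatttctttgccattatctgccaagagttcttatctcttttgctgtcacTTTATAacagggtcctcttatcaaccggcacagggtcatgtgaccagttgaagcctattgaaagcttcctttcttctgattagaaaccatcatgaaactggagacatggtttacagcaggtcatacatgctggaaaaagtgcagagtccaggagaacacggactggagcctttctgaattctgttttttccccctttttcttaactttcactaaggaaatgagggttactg

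The first 3 windows are rich in CG pairs and hold no TATAAA: Ddx59 has 18 CG pairs, Camsap2 31 and Phlda3 26, against a median of 7 over all windows. The Nr5a2 window has 2 CG pairs, a GC content of 42.0%, and TATAAA on the opposite strand. A further Nr5a2 window, from 136953581 to 136953880, has 7 CG pairs and 1 CCAAT. Over the 7 called members the 9 windows had a median GC content of 66.0%, and over the 34 other members with a window the 47 windows had 59.7%. GGGCGG was present in 5 of the 9 and in 26 of the 47. A match describes the letters in the window and nothing more.

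Of the 49 rows, 41 were given an adjusted p, and 7 of these were called, 5 higher and 2 lower in knockout. Among all 16902 tested rows, 1.09% were called, 0.592% higher and 0.497% lower. The share among the members was 17.1%, but since the stretch was chosen on these values nothing is read from it. The 8 rows without an adjusted p had means of at most 4.14 over the 6 libraries. Among the 41, 22 had a higher knockout mean and 19 a lower one, with a median log2 ratio of 0.007, beside -0.001 over all tested rows. The members thus did not share a direction. The size of the log2 ratio had a median of 0.16 in the members and 0.07 in all tested rows. The choice of the stretch bears on this contrast as well, so nothing is read from it.

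**Figure D1:**
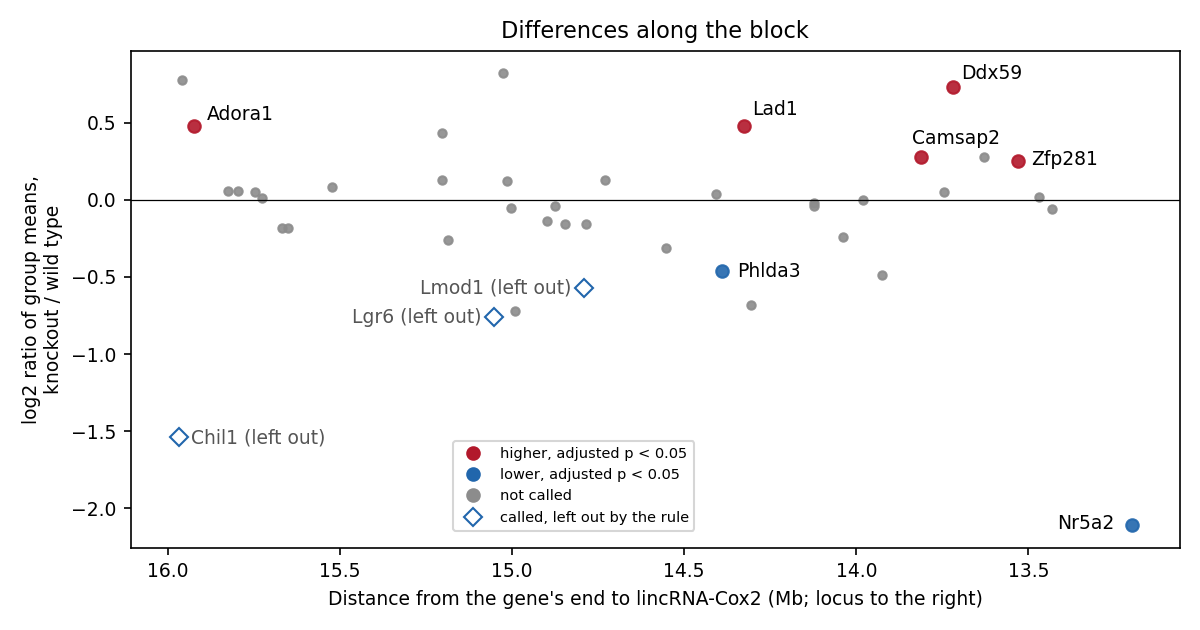
Each point is a member with an adjusted p and a gene model, placed by the distance from its end to lincRNA-Cox2 (Mb, the locus lying to the right), and the vertical axis gives the log2 of the knockout mean divided by the wild type mean. Red points are the 5 members called higher, blue points the 2 called lower, grey points the members not called, and open diamonds the genes left out. Called genes of both directions lie among grey points, and Nr5a2 at -2.11 is the lowest.

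Ddx59 had the largest rise of the called members. It encodes a DEAD-box RNA helicase and lies at 136415271 to 136440158 on the plus strand. Its mean was 405 in wild type and 670 in knockout (authors' deposited table), 1.66-fold higher (shrunken log2 fold change 0.54 ± 0.074 (SE), adjusted p = 7.11e-10, authors' DESeq2 comparison). The noncoding gene 9230116N13Rik starts head to head with it on the other strand, and 153 exon bases are shared. Its reads could be resolved by library: 57.1, 58.6 and 44.7 normalized reads in wild type and 50.7, 65.6 and 50.1 in knockout. These values overlapped, with means of 53.5 ± 7.61 and 55.5 ± 8.78 (SD, n = 3 each), while Ddx59 beside it rose. Of 32 tested DEAD-box helicase genes, Ddx59 was the 1 called, and the other 31 had a median log2 ratio of 0.01.

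Camsap2 and Zfp281 flank Ddx59 and were also called higher. Camsap2, whose protein binds and stabilises free microtubule minus ends, lies 69.2 kb before it on the minus strand. Its means were 4425 and 5372 (authors' deposited table), 1.21-fold higher (0.25 ± 0.052 (SE), adjusted p = 4.04e-04). Zfp281, a zinc finger transcription factor known from pluripotent cells, lies 185 kb after Ddx59. It had means of 2052 and 2447, 1.19-fold higher (0.22 ± 0.056 (SE), adjusted p = 0.0129), which was the highest adjusted p among the 7. Kif14, a mitotic kinesin between Ddx59 and Zfp281, had means of 77.0 and 93.6 and was not called (adjusted p = 0.871 in the authors' deposited table). So 3 called members in a row of 5 tested ones rose, with 1 uncalled gene in each gap.

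Adora1 and Lad1 rose by nearly the same amount at other places of the stretch. Adora1 encodes an adenosine receptor that couples to inhibitory G proteins and lowers cyclic AMP. It lies at 134199223 to 134235431 on the minus strand and averaged 388 and 543 (authors' deposited table), 1.40-fold higher (0.33 ± 0.078 (SE), adjusted p = 0.00428). Mybph, a myosin binding protein of muscle, faces it on the plus strand and shares 1162 exon bases with it, 49.9% of its own exons. It averaged 43.7 in wild type and was 1.72-fold higher in knockout, with a shrunken log2 fold change of 0.21 ± 0.075 (SE), and was not called (adjusted p = 0.206 in the authors' deposited table). No use of strand is stated, so reads from the shared bases cannot be assigned to Mybph or to Adora1. Of the 10 tested genes of adenosine receptors, enzymes and transporters, Adora1 was the 1 called, and the other 9 had a median log2 ratio of -0.05.

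Lad1 encodes ladinin, a protein of epithelial basement membranes, and lies at 135818598 to 135833342 on the plus strand. Its means were 352 and 489 (authors' deposited table), 1.39-fold higher (0.33 ± 0.077 (SE), adjusted p = 0.00340). The other epithelial members were not called. Elf3, an epithelial ETS factor, had means of 1091 and 990 (adjusted p = 0.859, authors' deposited table), and Pkp1, a desmosomal plakophilin, had 4 reads in wild type and 0 in knockout over the 3 libraries of each. Among 16 tested genes of epithelial junctions and squamous epithelium Lad1 was called, and the 14 that are no members had a median log2 ratio of 0.04.

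Nr5a2 had the largest ratio of group means of any called member, while on the shrunken scale Ddx59 differed more. Nr5a2 encodes the nuclear receptor LRH-1, known for bile acid and steroid genes in liver and gut, and lies at 136842571 to 136960448 on the minus strand. Its low level allowed each library to be resolved: 54, 57 and 56 reads in wild type and 12, 12 and 15 in knockout. As normalized reads these were 53.2, 56.6 and 58.3 against 11.7, 11.8 and 15.3, so every knockout library lay far below every wild type library. The means of 56.0 ± 2.61 and 12.9 ± 2.09 (SD, n = 3 each) differed 4.33-fold. In the authors' deposited table the shrunken log2 fold change was -0.38 ± 0.068 (SE, adjusted p = 1.48e-05), much smaller than the log2 ratio of -2.11. Of the 4 tested genes in a list of NR5A receptors and their partners, Nr5a2 was the 1 called. The other 3, Prox1, Ncoa1 and Ncoa2, are partners and had a median log2 ratio of -0.00. No other NR5A receptor of the list was tested.

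Phlda3 was the other member called lower. It encodes a pleckstrin homology protein that competes for membrane lipids with Akt and is induced by p53. It lies at 135766119 to 135769136 on the plus strand, only 49.5 kb before the rising Lad1. Its means were 1591 and 1156 (authors' deposited table), 1.38-fold lower (-0.37 ± 0.066 (SE), adjusted p = 1.25e-05). No annotated exon of another gene overlaps its exons. Of 16 tested p53 target genes 2 were called, Phlda3 and Plk2, a stress-induced kinase with means of 7861 and 5533 (adjusted p = 1.84e-04 in the authors' deposited table). Both were lower, while the 15 genes other than Phlda3 had a median log2 ratio of 0.03. The other 4 targets with an unadjusted p under 0.05 were not called and went in both directions. Btg2, an antiproliferative gene, averaged 34797 and 19782 (adjusted p = 0.127), 1.76-fold lower. Eda2r averaged 117 and 163, Mdm2 2985 and 3250, and Trp53inp1 4870 and 5706 (adjusted p = 0.266, 0.555 and 0.183).

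**Figure D2:**
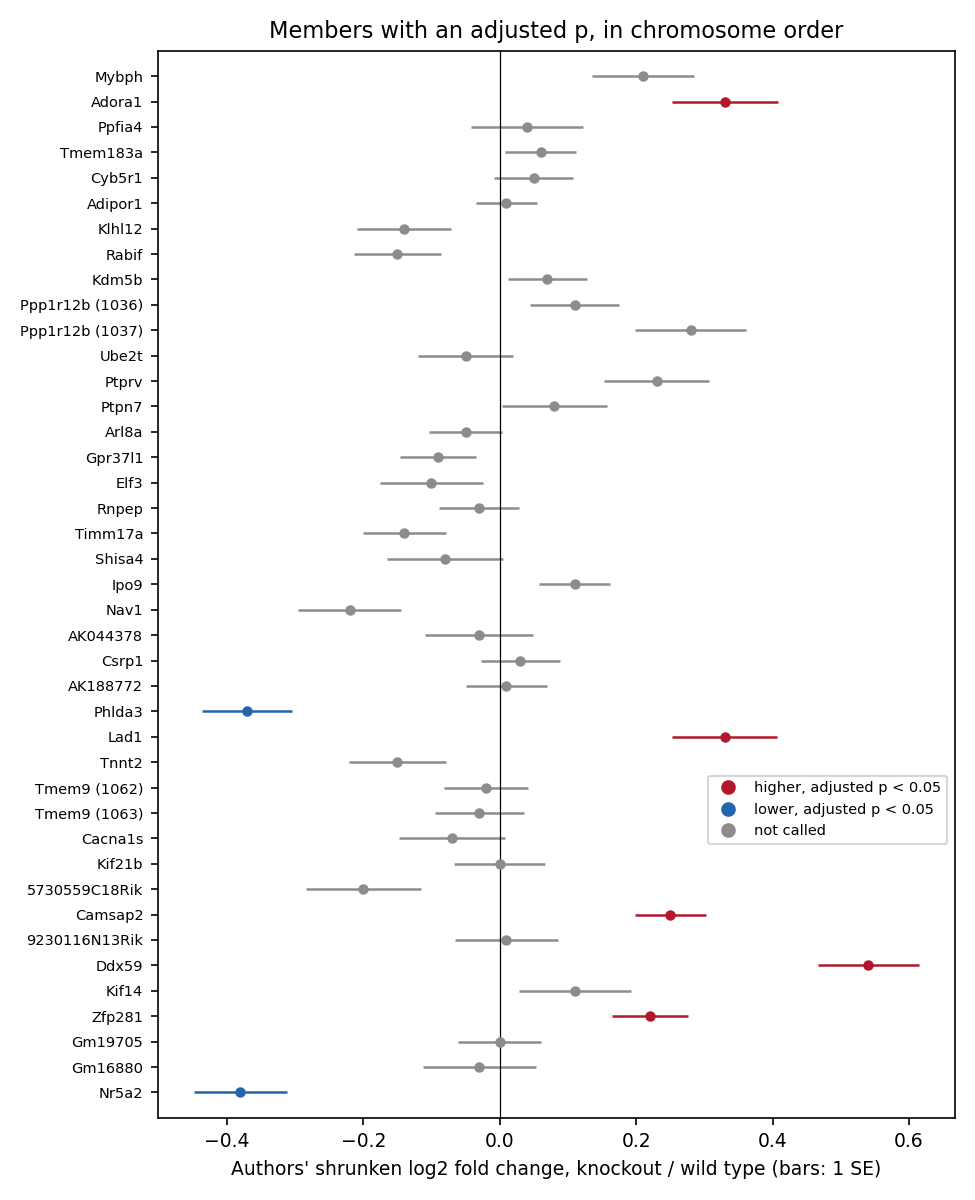
The shrunken log2 fold change (knockout relative to wild type, from the deposited table) is given for the 41 tested member rows, in chromosome order from top to bottom, with bars of 1 SE. Red rows were called higher, blue rows lower and grey rows not called; Ddx59 at 0.54 ± 0.074 and Nr5a2 at -0.38 ± 0.068 are the outermost, and numbers in brackets are the identifiers of symbols with 2 rows.

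A further 10 tested rows had an unadjusted p under 0.05 and were not called, 4 with a higher and 6 with a lower knockout mean. With the 7 called rows and Gpr25, which had no adjusted p, this made 18 of 49 rows (36.7%), beside 7.09% of all rows with a p-value. Nothing is read from this share either, since the stretch was chosen on these values. The nearest to the threshold was the second of the 2 rows of Ppp1r12b, with means of 274 and 369 (adjusted p = 0.0561 in the authors' deposited table). The first row of that gene, at 1280 and 1403, had an adjusted p of 0.734. How the gene's reads were divided between the rows is not given in the sources used here. Ptprv, a receptor tyrosine phosphatase gene annotated in mouse as a processed transcript, had means of 44.3 and 78.2 (adjusted p = 0.124). Nav1, a neuron navigator that follows growing microtubule ends, had 4253 and 3427 (adjusted p = 0.156). The uncharacterised name 5730559C18Rik, now Inava, belongs to a regulator of epithelial adherens junctions and innate signalling, with means of 162 and 116 (adjusted p = 0.354). An antisense gene, Gm26568, shares 32.0% of its exon bases, so its reads cannot be assigned with certainty.

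Smaller differences stood in 4 genes of basic cell functions. Rabif, a chaperone of Rab GTPases, had means of 1349 and 1193 (adjusted p = 0.418 in the authors' deposited table). Timm17a, a channel subunit of the mitochondrial inner membrane translocase, had 1246 and 1116 (adjusted p = 0.460). Klhl12, a substrate adaptor of a cullin ubiquitin ligase, had 889 and 787 (adjusted p = 0.545). Ipo9, an importin that carries histones, had 3157 and 3450 (adjusted p = 0.472). None of the other 13 tested mitochondrial import genes and none of the other 15 importin genes was called, with median log2 ratios of 0.00 and 0.01.

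Among the muscle members the values went in both directions and none was called. Tnnt2, the cardiac troponin T, had means of 2699 and 1685 (authors' deposited table), 1.60-fold apart, yet its adjusted p was 0.493. Its shrunken log2 fold change of -0.15 ± 0.071 (SE) was much smaller than the log2 ratio of -0.68. Heart muscle reaches into the lung along the pulmonary veins, and of 21 tested striated sarcomere genes 16 had a lower knockout mean and 0 were called, with 3 at an unadjusted p under 0.05 (authors' DESeq2 comparison). Of those 3 Tnnt2 had the lower knockout mean, while Mybph and Nebl, a nebulin relative (4036 and 4810, adjusted p = 0.0539), had a higher one. The log2 ratios of the 21 genes ran from -0.68 to 0.78 with a median of -0.18, and both ends are members, Tnnt2 and Mybph. The 19 that are no members ran from -0.41 (Tnnt3) to 0.29 (Tnnt1), also with a median of -0.18. Over all 25 listed genes with a row the summed means were 30499 and 27244. The part of the amount of heart muscle in Tnnt2 was not tested. Tnni1, the slow skeletal troponin I, was near the lower limit, with 5, 2 and 4 reads in wild type and 1, 4 and 5 in knockout. Cacna1s, the calcium channel of skeletal muscle T tubules, had means of 75.7 and 64.3 (adjusted p = 0.959).

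Csrp1 had the highest level of the members, with means of 18942 and 19430 (adjusted p = 0.997, authors' deposited table). Of the 16 tested smooth muscle genes 12 had a lower knockout mean, with a median log2 ratio of -0.19. An unadjusted p under 0.05 was found for 5 (authors' DESeq2 comparison), namely Lmod1, Tagln, Myh11, Smtn and Des, all lower in knockout. The 1 that was called, Lmod1, is among the genes left out here. Both Csrp1 and the first row of Ppp1r12b had a slightly higher knockout mean, and neither was called. Among 12 tested genes of myosin phosphatase and its regulators 0 were called and 2 had an unadjusted p under 0.05 (authors' DESeq2 comparison). Lists take each symbol once, by its row with the highest mean, so the second row of Ppp1r12b, which was also under 0.05, is not in these counts.

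The remaining 24 tested rows had an unadjusted p of at least 0.05 and log2 ratios from -0.72 to 0.28. Adipor1, a receptor of the fat hormone adiponectin, had 8360 and 8402 (adjusted p = 0.997, authors' deposited table), and of the 9 tested genes of its pathway 0 were called, with 1 at an unadjusted p under 0.05 (authors' DESeq2 comparison). Kdm5b, a histone lysine demethylase, had 2562 and 2712 (adjusted p = 0.891). Ptpn7, a tyrosine phosphatase of blood cells, had 513 and 556 (adjusted p = 0.923), and Kif21b, a kinesin abundant in lymphocytes and neurons, 2224 and 2227. Arl8a, a GTPase that moves lysosomes, had 2818 and 2717 (adjusted p = 0.970), Rnpep, an aminopeptidase, 2451 and 2389, and Cyb5r1, a reductase, 1449 and 1505. Tmem183a had 2408 and 2514, and both rows of Tmem9, a lysosomal membrane protein, differed by at most 1.03-fold. Ppfia4, a liprin, had 378 and 394, and Shisa4 had 167 and 150. A p above the threshold does not show that the genotypes were alike in them.

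Levels differed far more between members than between genotypes. Per kb of annotated exon, which makes genes comparable as far as the authors' gene models match GENCODE M21, Csrp1 stood at 9684 normalized counts per kb in wild type. Adipor1 followed at 1664, Arl8a at 1226 and Phlda3 at 1020. Of the other called members, Camsap2 stood at 481 (rank 7 of 42), Zfp281 at 416 (rank 9), Lad1 at 103 (rank 19) and Adora1 at 67.1 (rank 24), and Ddx59 had rank 18. Nr5a2, at rank 33, was far below them at 9.50 normalized counts per kb in wild type and 2.19 in knockout. The table gives no spread between libraries for all but the low members, so neighbours in this order were not compared.

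**Figure D3:**
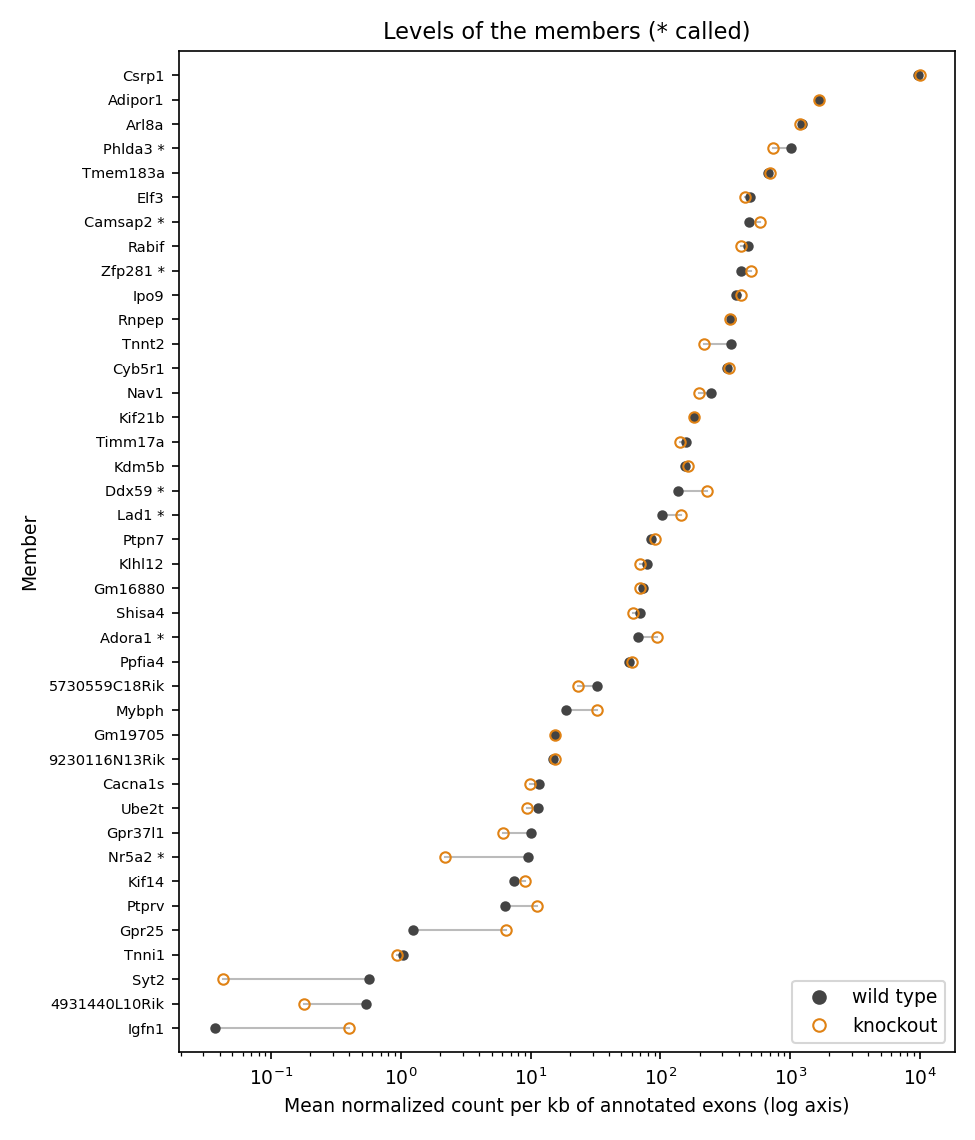
Mean normalized count per kb of annotated exon (log axis) for members with 1 row, a placed gene model and both means above 0, ordered by the wild type level (filled points; open points, knockout; asterisks, called members). Most pairs of points nearly coincide, and among called members Phlda3 and Nr5a2 shift to the left and Camsap2, Zfp281, Ddx59, Lad1 and Adora1 to the right.

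For 13 of the 18 members with group means of at most 100, exactly 1 combination of whole reads per library fitted both means. In 5 of these 13 the values of the genotypes did not overlap, beside 13.2% of rows with both means up to 60 in the whole table. Since these are the same libraries that chose the stretch, nothing is read from that count. Nr5a2 was one of the 5. Gpr37l1, an orphan receptor of glia, had 21.7, 22.8 and 23.9 normalized reads in wild type and 14.6, 15.7 and 11.3 in knockout. Its means of 22.8 ± 1.14 and 13.9 ± 2.31 (SD, n = 3 each) were 1.65-fold apart, and it was not called (adjusted p = 0.774 in the authors' deposited table). Gpr25, an orphan receptor of lymphocytes, had 3, 0 and 1 reads in wild type and 7 in every knockout library and no adjusted p, with 41.6% of its exon bases shared with an antisense gene. Syt2, a synaptic vesicle calcium sensor, had 5, 5 and 3 reads in wild type and 1, 0 and 0 in knockout. Igfn1, a muscle protein, had 1, 0 and 0 against 5, 5 and 1. Both genotypes thus hold a library with 1 read, and Igfn1 counts as not overlapping only because the size factors scale those reads differently. The last 3 rest on so few reads that no fold is given.

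The other resolved members overlapped between genotypes. Ube2t, a ubiquitin-conjugating enzyme of DNA crosslink repair, had 47.2, 53.6 and 62.4 normalized reads in wild type and 34.1, 64.6 and 37.9 in knockout. One knockout library lay above all wild type libraries and the others below them, with means of 54.4 ± 7.62 and 45.5 ± 16.6 (SD, n = 3 each). Of the 21 tested proliferation genes, which include Ube2t and Kif14, 0 were called and 0 had an unadjusted p under 0.05 (authors' DESeq2 comparison). Mroh3 had 2 reads in wild type and 0 in knockout, and 4931440L10Rik, now Mgat4e, had 3 and 1.

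**Figure D4:**
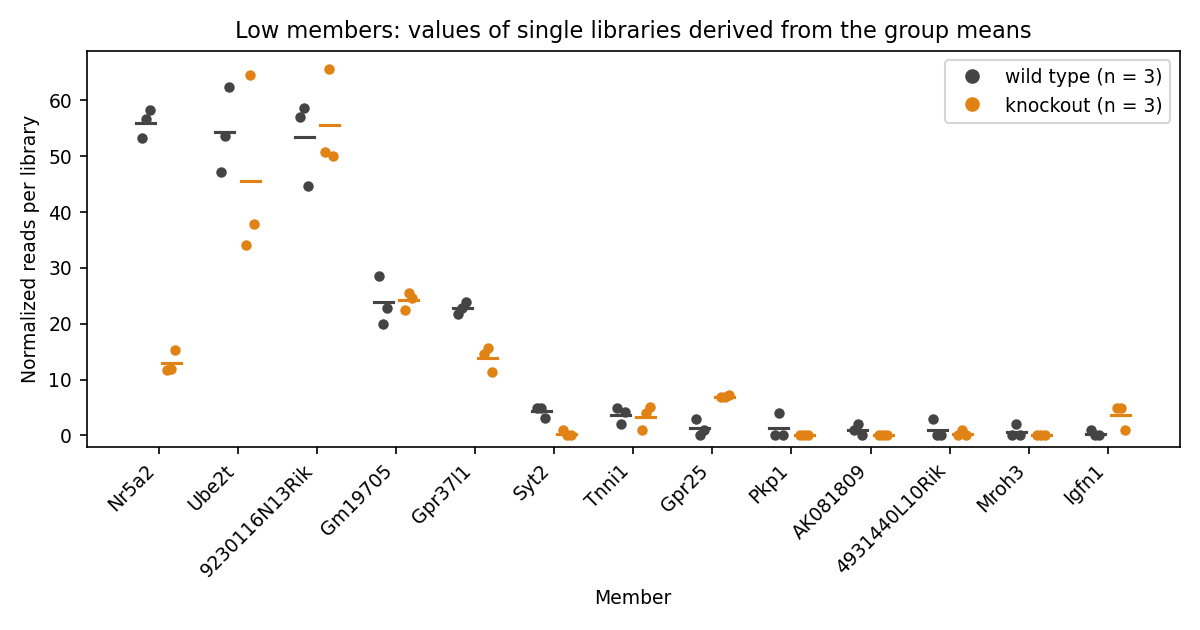
Normalized reads of each library (points, 3 per genotype) and their means (bars) for the 13 members whose reads could be resolved, ordered by the wild type mean. The 3 knockout points of Nr5a2, between 11.7 and 15.3, lie below its wild type points between 53.2 and 58.3, while those of Ube2t and 9230116N13Rik overlap.

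The stretch was set beside its surroundings by counts, with no test of the differences. Between Adora1 and Phlda3 lie 1531 kb and 23 tested member rows of which none was called, and the genes left out, Lgr6 and Lmod1, lie within this gap. With Lgr6 (297 and 175), Lmod1 (735 and 496) and Chil1 (19892 and 6858, all from the authors' deposited table) put back, 10 of 44 tested rows were called, 5 in each direction. Chil1, 1 identifier below the range, was the one gene called among 46 tested rows of an equally wide range on that side. On the side towards the locus, an equally wide range of identifiers held 28 tested rows with 5 called. Without Ptgs2 and lincRNA-Cox2 these were 3 of 26. This range takes in the locus itself, at kgCluster1130, and reaches past it. It holds Ptprc at 138062861 and lincRNA-Cox2 at 150159043, so in bases it is far wider than the 2.77 Mb of the members. Ptprc, the first row beyond Nr5a2, had 8778 and 9521 (adjusted p = 0.573). At 13 to 16 Mb on the far side of the locus 29 rows were tested, of which 0 were called and 3 had an unadjusted p under 0.05 (authors' DESeq2 comparison). The size of the log2 ratio had a median of 0.16 in the members and 0.12 in the range that takes in the locus. Without Ptgs2 and lincRNA-Cox2 the latter was 0.11. It was 0.10 on the side away from the locus and 0.08 on the far side. Since the members were chosen on these values, nothing is read from their place in this order.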

How the data were processed

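The series holds a single results table. According to its header line, the authors deposited means of normalized read counts (a signal) over all 6 libraries and per genotype. The authors also deposited a shrunken log2 fold change with its standard error, the Wald score, and p-values before and after adjustment. Per the submitters' processing notes, Bowtie2, STAR 2.5.1b, SAMtools, bedtools, DESeq2 and mm10 were used; no source used here gives the counting rule or strand use. The adjusted p-values are those of the authors' DESeq2 comparison over all 16902 genes tested. No model was fitted anew.

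Python 3.11.15 placed genes by symbol or synonym on GENCODE M21 (GRCm38). Size factors (0.961 to 1.025) and whole reads per library were derived where 1 combination fitted a group mean within its printed digits and 4 standard errors of the size factors, a step tested on simulated data; these libraries carry no replicate number. Where the 6 separately titled libraries are not separate mice, p-values measure only the spread between these samples. Named were all called members, those with an unadjusted p under 0.05, and others by role. The members, lists and rules were chosen with earlier results of these data known. Alternatives changed the threshold, filter, members and scale.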

Additional observations from a re-analysis of the deposited data

How the results depend on the processing

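The count of 7 called members, 5 higher and 2 lower, stayed within 1.5 times at adjusted p thresholds of 0.01 and 0.1 (6, without Zfp281, and 8, with the second row of Ppp1r12b), with members taken by coordinates in place of identifiers (7), and with p-values adjusted over all rows (7). With an unadjusted p under 0.05 there were 18, 10 higher and 8 lower. With Lgr6, Lmod1 and Chil1 put back 5 were lower. With only rows at a mean of at least 50, Nr5a2 (mean 34.5) left the table and 1 was lower. The median log2 ratio of the members stayed between -0.010 and 0.008 over its alternatives. The log2 ratio of Nr5a2 was -1.53 with a pseudocount of 10 and ran from -2.26 to -2.05 without each library in turn. Other called members kept their sign on each scale tried. Refits with edgeR or DESeq2 and calls without a library were not run, as reads of single libraries could be derived for low rows only. The spread between libraries behind the other called members is therefore not known. Their standard errors belong to the shrunken estimate and do not give it. On that scale Mroh3, with 2 reads in wild type and 0 in knockout, had an SE of only 0.007. For rows at a few reads, a difference was not detectable at this depth.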

Other observations

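None of the members without a protein-coding gene model was called: Ptprv, 9230116N13Rik, Gm19705, Gm16880 and 3 rows that were not placed. The lincRNA Gm19705 had 28.5, 19.9 and 22.9 normalized reads in wild type and 22.4, 25.5 and 24.6 in knockout, with means of 23.8 ± 4.41 and 24.2 ± 1.56 (SD, n = 3 each). Gm16880, now the lincRNA Platr22, averaged 118 and 113 (authors' deposited table, adjusted p = 0.997). Both lie between Zfp281, which was called higher, and Nr5a2, which was called lower. AK188772, which was not placed, stands in the identifiers between Csrp1 and Phlda3 and had means of 5423 and 5452 in the same table. AK044378 had 85.9 and 80.9, and AK081809 had 3 reads in wild type and 0 in knockout.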
